A study of Mus musculus with 6 samples.

Results

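The clustered replication-dependent histone genes were taken from the mouse RefSeq annotation (GRCm38.p6, whose coordinates are those of mm10) as the protein-coding genes whose symbol is H2ac, H2bc, H3c or H4c followed by digits, the current names of the Hist1h, Hist2h and Hist3h genes. The rule found 57 of 21887 protein-coding genes: 17 for H2A, 16 for H2B, 12 for H3 and 12 for H4. Of these, 47 lie on chromosome 13, 10 on chromosome 3 and 0 on chromosome 11. The chromosome 11 genes formerly named Hist3h2a and Hist3h2ba are now H2aw and H2bu2, so they fall outside the symbols and are given beside the members. Open chromatin was profiled by ATAC-seq, an assay in which a transposase cuts accessible DNA, in viable GFP+, DAPI- urothelial cells sorted from the peeled lining of the bladder. The 6 libraries were 3 Stag2-KO and 3 Stag2-WT, all of batch 1 and all taken 1 week after TMX induction. Mice of both genotypes received TMX in their diet, per the treatment protocol. The sources used here do not give the driver of the deletion, the ages of the mice or the number of animals behind a library. The labels name the libraries biological replicates, so p-values here reflect how far the 6 libraries vary.

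Core histones package DNA into nucleosomes, and the clustered genes supply them during S phase, when the genome is copied. These genes lack introns, and their transcripts end in a stem-loop in place of a poly(A) tail. Their transcription is tied to the cell cycle by NPAT, which gathers with processing factors in the histone locus body beside the clusters. Many H2A and H2B genes stand in divergent pairs that share a short promoter, while H4 genes mostly have a promoter of their own. STAG2 is a subunit of cohesin, the ring that shapes chromatin loops. The series title links it to quiescence, the resting state, and to DREAM, a repressor of cell cycle genes, and the design asks what its loss changes in quiescent urothelium.

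The promoters of the members on which the values below turn are shown from RefSeq, 5′ to 3′ and in GRCm38.p6 coordinates. H4c12 and H4c9 had the smallest p of the members with better ranks in KO, though neither passed the test. H2bc7 and H2ac7 share an interval whose rank was better in KO by fold and not by p. H2ac15 and H2bc15 share one whose rank was better in WT. H2ac12 and H2bc12 held the best mean rank over the 6 libraries. H3c4 and the testis gene H2ac1 were at the bottom of the lists. For the divergent pairs named below by both genes, all the bases between both starts are printed. For H4c12, H4c9, H3c4 and H2ac1, the 250 bases before the start are printed on the gene's own strand. H2ac1 also stands divergent to H2bc1, and its printed bases are part of those between both starts. Capitals mark TATAAA (the TATA box), CCAAT, ATTTGCAT (the octamer bound by POU2F1) and TTTGAA (the CHR element bound by DREAM and MMB), each on either strand.
H4c12, chr13:21750554-21750803, minus strand: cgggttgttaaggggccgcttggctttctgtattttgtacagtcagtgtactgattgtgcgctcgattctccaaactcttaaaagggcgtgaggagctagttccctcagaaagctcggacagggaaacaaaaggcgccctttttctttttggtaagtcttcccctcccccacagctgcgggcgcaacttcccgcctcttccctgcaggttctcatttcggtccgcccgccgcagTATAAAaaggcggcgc
H4c9, chr13:22041363-22041612, minus strand: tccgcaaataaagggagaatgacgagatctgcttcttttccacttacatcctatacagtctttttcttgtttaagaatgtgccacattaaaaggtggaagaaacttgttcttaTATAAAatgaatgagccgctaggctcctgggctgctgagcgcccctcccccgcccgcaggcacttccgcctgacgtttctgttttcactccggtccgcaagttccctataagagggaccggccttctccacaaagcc
H2bc7 to H2ac7, chr13:23574208-23574380, plus strand: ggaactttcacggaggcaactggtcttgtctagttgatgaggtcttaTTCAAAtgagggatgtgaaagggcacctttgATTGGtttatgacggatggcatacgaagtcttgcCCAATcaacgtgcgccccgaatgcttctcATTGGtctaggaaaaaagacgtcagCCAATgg
H2ac15 to H2bc15, chr13:21753913-21754075, plus strand: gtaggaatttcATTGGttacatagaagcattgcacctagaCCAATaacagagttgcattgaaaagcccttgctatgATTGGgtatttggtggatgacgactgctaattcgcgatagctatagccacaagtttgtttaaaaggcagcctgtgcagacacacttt
H2ac12 to H2bc12, chr13:22035644-22035820, plus strand: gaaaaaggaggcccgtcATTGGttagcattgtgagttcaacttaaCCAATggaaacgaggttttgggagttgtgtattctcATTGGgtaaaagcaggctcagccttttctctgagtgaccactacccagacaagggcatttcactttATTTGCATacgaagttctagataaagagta
H3c4, chr13:23575513-23575762, plus strand: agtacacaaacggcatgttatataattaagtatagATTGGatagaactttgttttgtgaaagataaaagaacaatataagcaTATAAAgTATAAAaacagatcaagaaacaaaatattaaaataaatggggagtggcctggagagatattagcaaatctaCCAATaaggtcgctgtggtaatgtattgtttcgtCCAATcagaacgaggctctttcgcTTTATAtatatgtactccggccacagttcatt
H2ac1, chr13:23934187-23934436, plus strand: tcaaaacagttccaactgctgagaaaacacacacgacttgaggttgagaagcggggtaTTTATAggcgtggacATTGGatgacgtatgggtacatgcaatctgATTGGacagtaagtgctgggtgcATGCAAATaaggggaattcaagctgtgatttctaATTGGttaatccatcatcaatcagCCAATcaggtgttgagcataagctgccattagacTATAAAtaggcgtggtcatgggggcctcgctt
Both H4 promoters hold the letters TATAAA and none of the others. These begin at base 235 of the 250 printed for H4c12, and at base 114 for H4c9, much further from the start. The 3 divergent promoters hold CCAAT 3 to 4 times each and no TATAAA. The H2ac12 to H2bc12 promoter also holds the octamer, and the H2bc7 to H2ac7 promoter the CHR letters.

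The peak lists held 260462, 149153 and 177320 distinct intervals in KO and 168561, 174275 and 165214 in WT. A peak's fold and p are the authors' values and depend on depth, and the sources used here give no read totals. Each library was therefore read by rank: the distinct intervals were ranked by fold, rank 1 being the highest, and a gene took the best rank of any interval within 1 kb of its span among the best 100000. Libraries did not all lie closest to their own genotype. Across 16551 genes, the −log2 ranks of KO replicate 3 correlated with those of WT replicates 1 and 3 at r = 0.914 and 0.940, and with those of KO replicates 1 and 2 at 0.880 and 0.806 (descriptions over genes, which are not independent). KO replicate 2 and WT replicate 2 correlated with each other at 0.892. KO replicate 2 correlated with KO replicates 1 and 3 at 0.870 and 0.806, and WT replicate 2 with WT replicates 1 and 3 at 0.786 and 0.876. Gene ends made up 20.97%, 21.2% and 19.1% of the best 50000 intervals in KO and 19.0%, 18.3% and 18.2% in WT. All 14 urothelial marker genes had an interval among the best 100000 of every library. Of the markers of other cell types, 4 of 5 for fibroblasts, 3 of 4 for smooth muscle, 4 of 4 for endothelium and 4 of 6 for immune cells had one in at least 3 libraries, while the macrophage gene Adgre1, the fibroblast gene Lum and the smooth muscle gene Cnn1 had none there in any library. No marker was called in KO against WT by the test below; Upk3a, a uroplakin gene, had an unadjusted p below 0.05 with a positive gain and Tek, an endothelial receptor gene, with a negative one.

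The histone genes were open in both genotypes. An interval among the best 100000 lay at 51, 51 and 55 of the 57 members in KO, and at 54, 53 and 54 in WT. These counts are 89.5% to 96.5% of the members, against 74.8% to 75.7% of all protein-coding genes in KO and 74.4% to 75.2% in WT. Histone genes are short, and among the 3399 genes with spans of up to 3 kb the shares were 27.3% to 28.3% in KO and 26.8% to 27.4% in WT. The ranks were moderate beside those of all tested genes. The median rank of the tested members was 28652, 39181 and 24236 in KO and 16917, 36189 and 23956 in WT, while over all tested genes it was 15441, 17771 and 16916 in KO and 16270, 19634 and 17917 in WT. Among the best 25000 intervals, the members numbered 24, 18 and 28 in KO and 34, 13 and 29 in WT, and the groups overlapped.

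**Figure D1:**
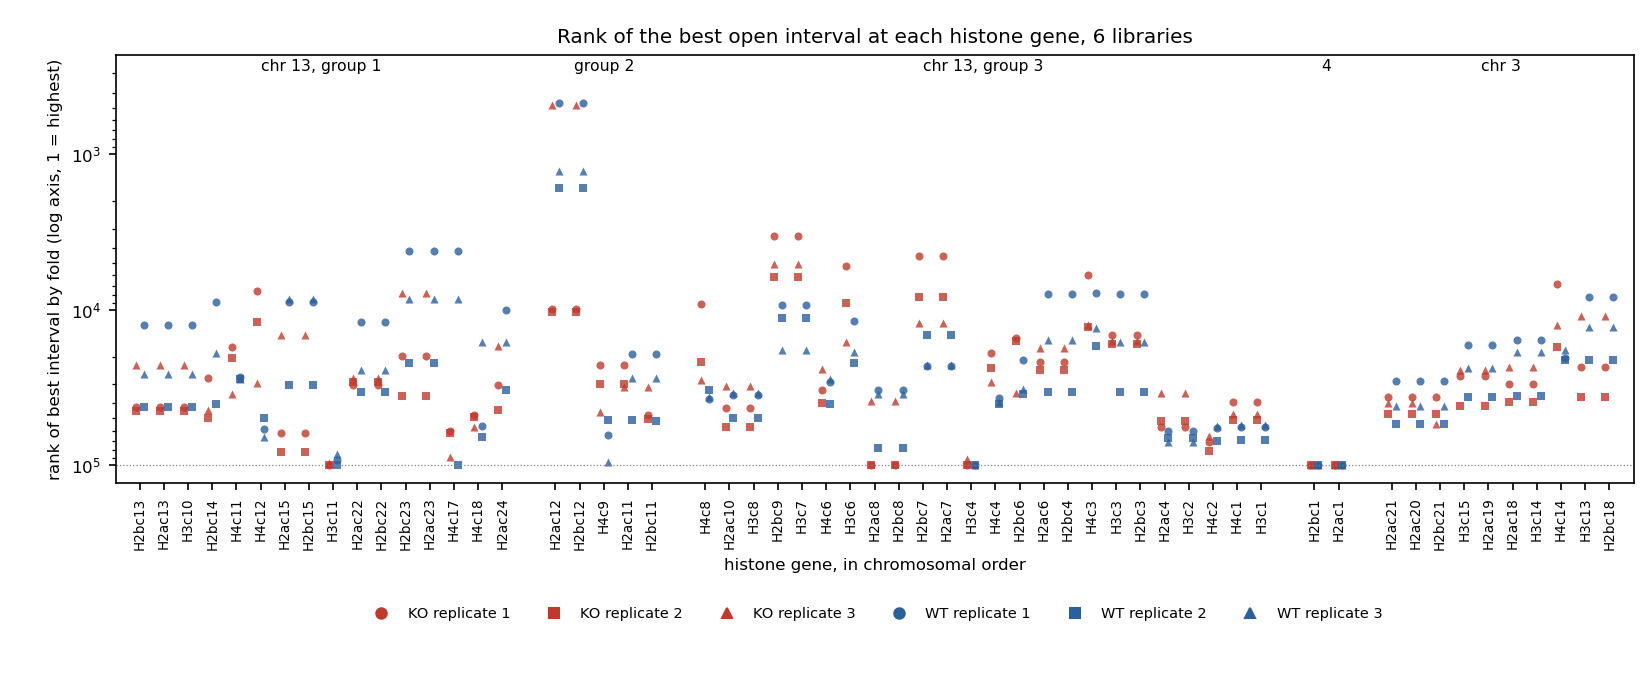
Rank of the best interval by fold (log axis, rank 1 at the top) at each of the 57 histone genes in chromosomal order, KO libraries in red left of WT libraries in blue; the dotted line is the rank given where no interval lay among the best 100000. H2ac12 and H2bc12 stand highest in KO replicate 3 and in the 3 WT libraries, and H2ac1 and H2bc1 lie on the dotted line in all 6 libraries.

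Members are not independent of each other, since neighbours often share an interval. Counts of members below include a shared interval once for each of its genes, unless distinct intervals are named. The best intervals of the 57 members came to 39 sets: 22 members stood alone, H2ac1 and H2bc1 among them for want of an interval, 16 pairs had the same interval in every library, and 1 set held H2bc13, H2ac13 and H3c10. Of the pairs, 7 joined an H2A with an H2B gene. In single libraries, 32 to 36 distinct intervals carried the members. The summit of the best interval lay within 250 bp of the gene's start in 73.2% of 287 values. By class this share was 86.8% for H2B, 81.8% for H4, 75.5% for H2A and 37.3% for H3. H2bc6, H2bc22 and H2bc4 are annotated with spans much longer than a histone coding sequence. The best interval of H2bc6 was also that of the linker histone gene H1f4, whose 3′ end lies within 1 kb of its span, in every library but WT replicate 1.

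**Figure D2:**
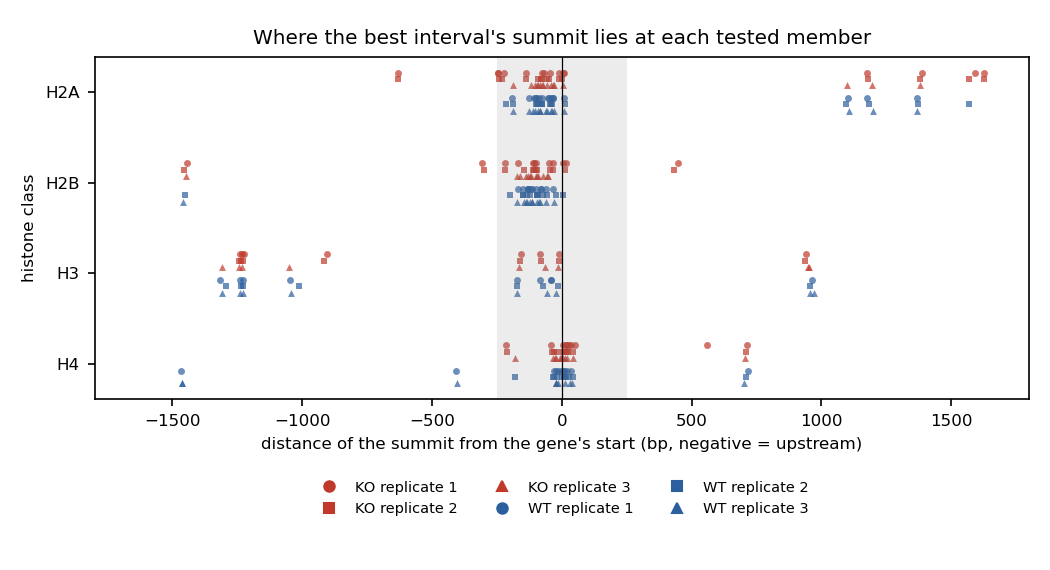
Distance in bp from each tested gene's start to the summit of its best interval (negative is upstream), by histone class, KO points in red above WT points in blue; the shaded band marks 250 bp to either side. H4 summits centre on the start, H2A and H2B summits lie just upstream of it, and many H3 summits lie outside the band.

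Along chromosome 13 the members fall into 4 groups separated by more than 100 kb. The first spans chr13:21715711-21833475 with 16 genes, the second chr13:22035122-22043658 with 5, the third chr13:23531044-23762386 with 24 and the fourth chr13:23933725-23934913 with 2. The 10 members on chromosome 3 lie at chr3:96219885-96270192. The best mean rank over the 6 libraries was that of H2ac12 and H2bc12 in the second group, a divergent pair that encodes an H2A and an H2B and shares 1 interval. It held rank 9902, 10397 and 479 in KO, against 466, 1644 and 1281 in WT. KO replicates 1 and 2 stood apart from the other 4 libraries, and KO replicate 3 lay within the WT range. In KO replicates 1 and 2 other members ranked better, among them H2bc9 and H3c7 at 3371 and 6142. The gain of H2ac12 and H2bc12 was -1.88 ± 1.12 (SE, n = 3 each), where +1 means a rank a factor of 2 better in KO, and it did not pass the test (limma, adjusted p = 0.563). It was 1.32 after adjustment for the gene-end share, and -3.35 to -1.13 with each library left out. On chromosome 3, H4c14, an H4 gene, had the best mean rank over the 6 libraries, with 6771, 17226 and 12546 in KO and 20520, 20936 and 18260 in WT. In KO replicate 3 and in WT replicates 1 and 3, the interval of H3c13 and H2bc18 ranked better. The poorest mean rank there was that of H2bc21, an H2B gene, with 36388, 46440 and 54488 in KO and 28574, 54440 and 41382 in WT, with a gain of -0.17 ± 0.29. H2ac20 and H2ac21 held the same ranks in every library but KO replicate 3, where theirs was 39547.

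H2ac1 and H2bc1, the pair of the fourth group, encode the H2A and H2B that replace others in the male germ line. They were the only members with no interval among the best 100000 of any library. The H2ac1 promoter printed above holds the TATA box, CCAAT and the octamer. In the whole lists, which are longer, both had an interval at rank 132578 in KO replicate 1 and 111637 in KO replicate 2, and H2ac1 also had one at 118426 in WT replicate 3. The testis linker histone gene H1f6, on the same chromosome, had no interval in any whole list. H3c4, an H3 gene of the third group, was weak as well: only KO replicate 3 had an interval there among the best 100000, at rank 90743, so it was not tested. H3c11, another H3 gene, reached rank 96065 in KO replicate 3 and 91951 and 84287 in WT replicates 1 and 3, with none among the best 100000 of the other 3 libraries.

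For KO against WT, 54 of the 57 members had an interval in at least 3 libraries and were tested. No histone gene passed in either direction (limma, Benjamini-Hochberg over all 16551 genes, lowest adjusted p = 0.217), where 0.0242% of all genes were called higher in KO (4 genes) and 0.0121% lower (2 genes). At an unadjusted p below 0.05, 8 members were higher in KO and 4 lower, beside 6.36% and 3.72% of all genes. The 3 KO libraries all ranked better than the 3 WT libraries at 13 of the 54 members, which rest on 9 distinct intervals, beside 10.9% of all genes. The reverse held at 0 members, beside 4.13% of all genes. Gains were positive at 21 members and negative at 33, with a median of -0.21, while 59.7% of all genes had a positive gain and the median of all genes was 0.12. The gene-end share named above also separated the genotypes, and its part in these values was not tested beyond the covariate fit given below. The share was 20.97% and 21.2% in KO replicates 1 and 2, but 19.1% in KO replicate 3 and at most 19.0% in WT. As a covariate it mostly marks KO replicates 1 and 2, so the adjusted gains cannot tell share and genotype apart.

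The gains were described by histone class. H4 genes had a median gain of 0.34, with 9 of 12 positive. H3 genes had -0.10, with 5 of 11 positive, H2A genes -0.41, with 3 of 16 positive, and H2B genes -0.49, with 4 of 15 positive. The 7 intervals shared by an H2A and an H2B gene had a median of -0.71, and 1 of the 7 was positive. These are descriptions, and the difference between classes was not tested. The class values are not separate. All tested H3 genes but H3c6 and H3c11 shared their best interval in every library with an H2A, H2B or H4 gene. Within 1 kb some genes of other classes also take the interval of a neighbour of another class. H4c18 took that of H2ac24 in WT replicate 3, and its gain was -0.38, but 0.34 in its promoter window. H2ac11 took that of H4c9 in KO replicates 1 and 2 and WT replicate 2, and its gain was 0.12, but -0.49 in its promoter window. Adjusted for the gene-end share as covariate, the medians were 0.31 for H4, -0.05 for H3, -0.09 for H2A and -0.17 for H2B. Without WT replicate 1 the medians were -0.03 for H2A and -0.08 for H2B, and without WT replicate 2 they were -0.79 and -0.91. The H4 median without each library stayed between 0.17 and 0.52. The median rank of the H4 genes was 20654, 26791 and 32288 in KO, against 37170, 44953 and 32234 in WT. KO replicate 3 lay at the level of WT replicate 3 there. The median rank of the H2A genes was 30437, 42738 and 23739 in KO, against 16310, 36189 and 23956 in WT, and the groups overlapped.

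**Figure D3:**
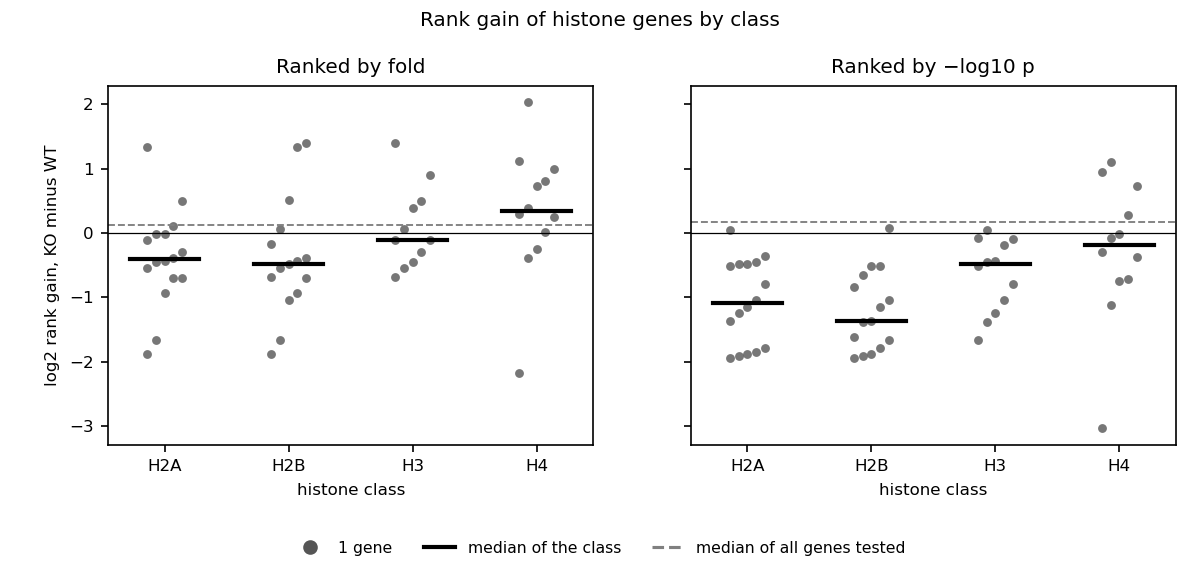
Log2 rank gain, KO minus WT, of each tested histone gene by class, with intervals ranked by fold on the left and by −log10 p on the right; thick bars are class medians and the dashed line is the median of all genes tested. By fold only the H4 median lies above 0, and by −log10 p all 4 medians lie below it.

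Among the H4 genes, H4c12 (chr13:21750145-21750553, minus strand) had the smallest p of all members. Its interval held rank 7611, 12022 and 29761 in KO, against 58118, 49398 and 66117 in WT, so the groups did not overlap and KO replicate 3 lay nearest to WT. The gain was 2.04 ± 0.42 (SE, n = 3 each, limma adjusted p = 0.217). It was called without KO replicate 3 (2.59, adjusted p = 0.0125, where 0.568% of all genes were called higher) and without WT replicate 2 (2.15, adjusted p = 0.0374, where 0.175% were). H4c9 (chr13:22040960-22041362, minus strand) held rank 22476, 29840 and 45584 in KO, against 63945, 51327 and 94837 in WT, again without overlap, with a gain of 1.12 ± 0.31 (limma adjusted p = 0.361). The summit lay close to the start at both genes, at a median distance of 33.5 bp for H4c12 and 17.5 bp for H4c9. H4c8 and H4c4, named after their values were seen, did not overlap either. H4c8 held rank 9161, 21707 and 28089 in KO and 37202, 32803 and 36546 in WT, and H4c4 held 18832, 23741 and 29013 in KO and 37138, 40507 and 39004 in WT. Their gains were 1.00 ± 0.39 and 0.73 ± 0.27 (limma adjusted p = 0.433 and 0.431). The interval of H4c8 had its summit at a median of 710.5 bp past the start, beyond the gene's span. In the promoter window of H4c8 the ranks were 56051, 68296 and 51016 in KO and 37202, 71345 and 57716 in WT, which overlapped, and the gain was -0.12.

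H4c17 had the most negative gain of all members, -2.18 ± 0.82 (limma adjusted p = 0.431), but the value turned with the window. Its ranks were 60494, 61609 and 88197 in KO and 4199, 99581 and 8523 in WT. In WT replicates 1 and 3 the best interval within 1 kb was the broad one of the neighbouring pair H2bc23 and H2ac23, with a summit at -1467 and -1462 bp from the start of H4c17 (negative is upstream). With a window of 500 bp, which leaves that interval out, the gain was 0.43. Leaving out WT replicate 2 gave -3.53, which was called (limma adjusted p = 0.000338, where 0.441% of all genes were called lower). H4c17 and H4c18 also share a run of 285 bases in their promoter windows. Runs of 200 bases or more were shared as well by H2ac23 and H2ac24 (200), H2ac18 and H2ac19 (219), and H3c14 and H3c15 (231). The sources used here do not say how the authors placed reads with several matches, so the values of these 8 genes are uncertain.

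Of the intervals shared by an H2A and an H2B gene, 1 had a positive gain by fold. It lies between H2bc7 (chr13:23573760-23574207) and H2ac7 (chr13:23574381-23574915). The ranks by fold were 4536, 8262 and 12137 in KO, against 22896, 14436 and 22553 in WT, without overlap, and the gain was 1.34 ± 0.45 (limma adjusted p = 0.414). Ranked by −log10 p, the same interval held 16505, 19394 and 10872 in KO and 9814, 11263 and 10943 in WT, and the gain was -0.51. The interval of H2bc9 and H3c7, an H2B and an H3 gene, had gains of the same signs. By fold it held 3371, 6142 and 5038 in KO and 9258, 11286 and 18176 in WT, and its gain was 1.40 ± 0.50 (limma adjusted p = 0.414). By −log10 p it held 14089, 16950 and 6031 in KO and 4879, 10371 and 9903 in WT, a gain of -0.51.

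The other intervals shared by an H2A and an H2B gene had negative gains. The one between H2ac15 (chr13:21753377-21753912) and H2bc15 (chr13:21754076-21754553) held rank 62132, 82261 and 14609 in KO, against 8883, 30580 and 8561 in WT. KO replicates 1 and 2 lay below every WT library, and KO replicate 3 lay within the WT range. The gain was -1.67 ± 0.62 (limma adjusted p = 0.431). It was called without KO replicate 3 (-2.43, adjusted p = 0.0458, where 0.514% of all genes were called lower), and it was 0.067 once adjusted for the gene-end share. H2ac8 and H2bc8 had no interval among the best 100000 of KO replicates 1 and 2, rank 38359 in KO replicate 3, and 32716, 77735 and 34814 in WT, with a gain of -0.71 ± 0.40. The unpaired H2B gene H2bc14 held 27368, 49748 and 43817 in KO and 8880, 40573 and 18885 in WT, and its gain was -1.04 ± 0.47 (limma adjusted p = 0.485).

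**Figure D4:**
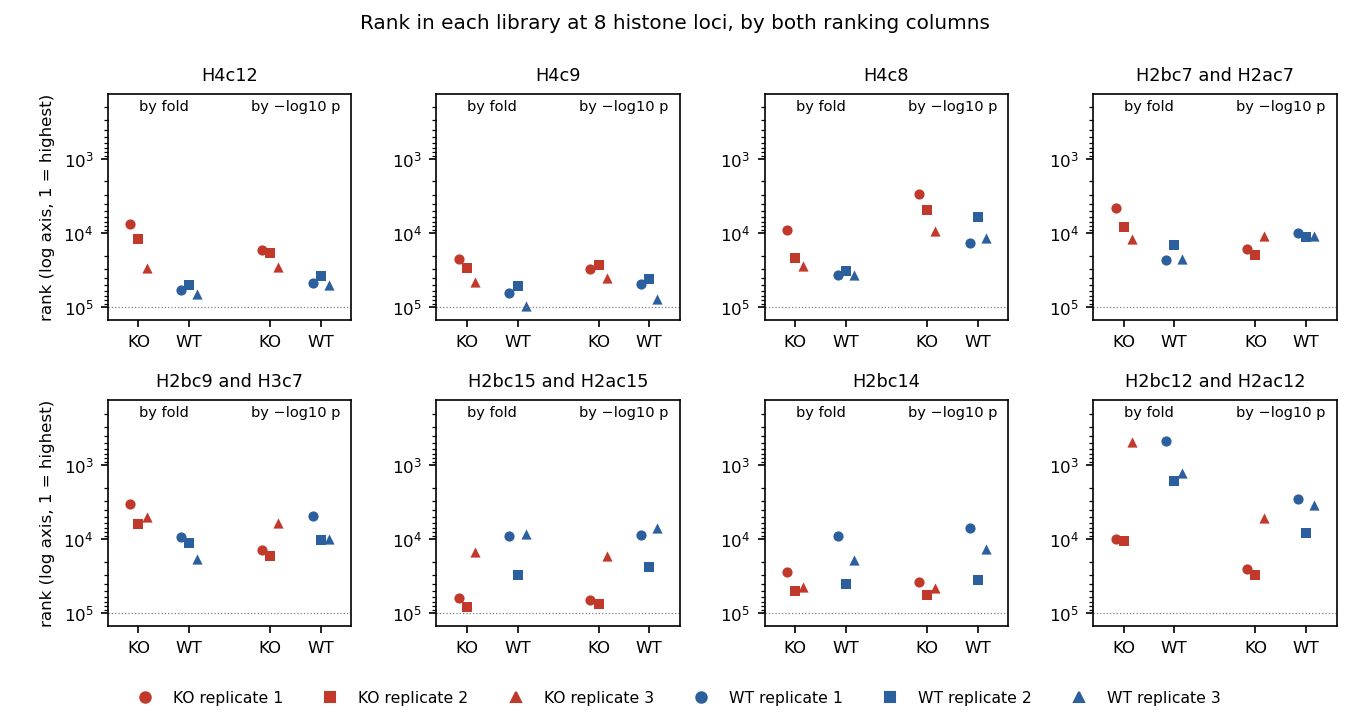
Rank (log axis, rank 1 at the top) in each library at 8 histone loci, by fold on the left and by −log10 p on the right of each panel, KO in red left of WT in blue. H4c12 and H4c9 keep KO above WT by both columns, while the H2bc7 and H2ac7 interval has KO above WT by fold and not by −log10 p.

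Of the settings run, the ranking column moved the median gain of the members furthest. By −log10 p, 48 of 55 tested members had a negative gain and 7 a positive one, with a median of -0.80, while 62.3% of all genes had a positive gain and the median of all genes was 0.18. Again 0 members were called (limma), beside 0.0366% of all genes called higher and 0.0244% lower. At an unadjusted p below 0.05, 2 members were higher in KO, beside 11.6% of all genes, and 28 were lower, beside 6.35% of all genes. Many of the 28 share an interval and so carry the same values, as H2ac15 and H2bc15 do, so they rest on fewer distinct intervals. The WT libraries all ranked better at 7 members (6.06% of all genes) and the KO libraries at 2 (9.67%). The class medians were -1.09 for H2A, -1.37 for H2B, -0.48 for H3 and -0.19 for H4. All 14 genes of the shared H2A and H2B intervals had a negative gain, with a median of -1.79. The 2 members at which KO ranked better in every library were H4c12 (gain 1.10 ± 0.27, limma adjusted p = 0.258) and H4c9 (0.73 ± 0.28, adjusted p = 0.258).

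Members passed by −log10 p in some fits, which were chosen after the data were seen. Without KO replicate 3, 30 members were called lower and 3 higher, where 8.93% of all genes were called lower and 21.5% higher. With the replicate number as a block, 23 members were called lower and 2 higher, where 3.69% of all genes were called lower and 5.7% higher. These counts too include members that share an interval. Without WT replicate 2, 4 members were called lower, beside 0.158% of all genes. Without each of the other libraries, and after adjustment for the gene-end share, 0 members were called, though members had an unadjusted p below 0.05 and a lower rank in KO. These numbered 12 without KO replicate 1 (2.03% of all genes), 16 without KO replicate 2 (2.8%), 6 without WT replicate 1 (2.48%), 19 without WT replicate 3 (2.9%) and 4 after the adjustment (2.21%). The width of the members' best intervals moved with genotype too: its median was 549, 719 and 554 bp in KO and 821, 730 and 788 bp in WT. Over all of the best 100000 intervals the median width was 342, 346 and 356 bp in KO and 405, 374 and 388 bp in WT. The part of width in the ranks by p was not tested.

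**Figure D5:**
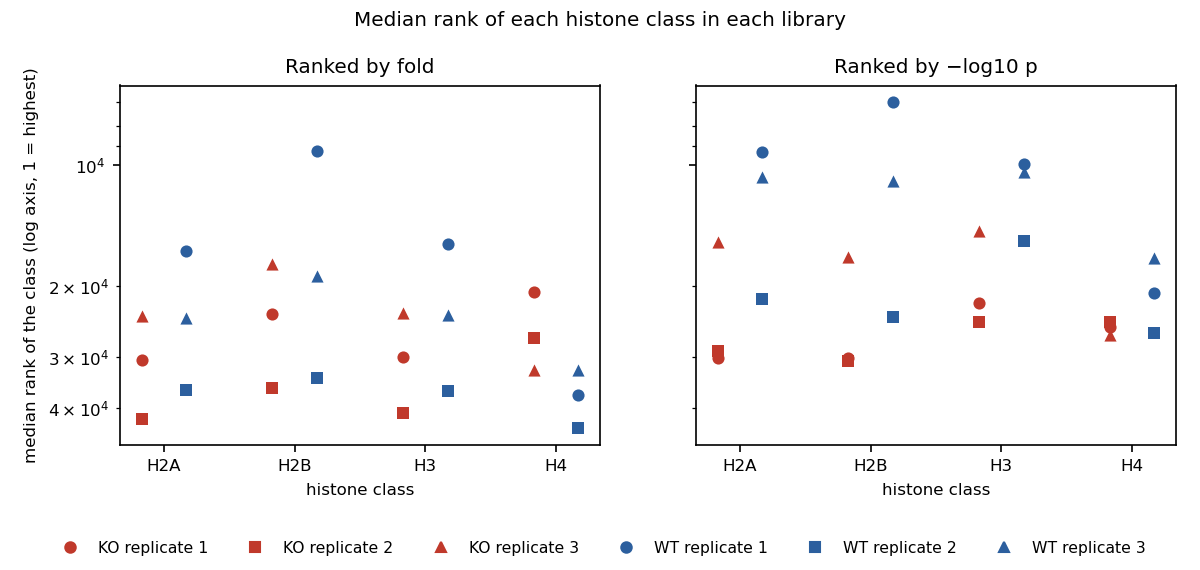
Median rank of the tested genes of each histone class in each library (log axis, better ranks at the top), by fold on the left and by −log10 p on the right, KO in red left of WT in blue. KO replicate 3 and WT replicate 2 lie within or near the range of the other genotype for H2A, H2B and H3.

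The clusters were then set side by side. On chromosome 13 the median gain by fold was -0.10 over 44 tested members, 20 of them positive, and on chromosome 3 it was -0.29 over 10 members, 1 of them positive. Within chromosome 13, the first group had a median of -0.54 with 2 of 16 positive, the second -0.49 with 2 of 5, and the third 0.39 with 16 of 23. They rest on 11, 4 and 15 distinct intervals, of which 2, 2 and 11 had a positive gain. By −log10 p the medians of these groups were -1.15, -0.84 and -0.48, and the third group had 4 positive and 20 negative gains. The clusters differ in class make-up, with 11 of the 12 H4 genes on chromosome 13. Differences between clusters or groups were not tested. The 10 members of chromosome 3 rest on 6 distinct intervals. Its positive member was H4c14, with a gain of 0.81 ± 0.41 (limma adjusted p = 0.508) and no overlap between the KO and WT ranks given above; with a window of 0 bp its gain was -0.44. Its most negative were H3c13 and H2bc18, an H3 and an H2B gene with 1 interval at rank 23358, 36512 and 10955 in KO and 8318, 21110 and 12900 in WT (gain -0.68 ± 0.48, limma adjusted p = 0.632). By −log10 p the medians of the clusters were -0.74 on chromosome 13 and -0.80 on chromosome 3. Of the chromosome 11 genes, H2aw, an H2A gene, held rank 34014, 44759 and 29958 in KO and 15607, 55759 and 19455 in WT (gain -0.48 ± 0.42), and H2bu2, an H2B gene, held 69577, 61160 and 64265 in KO and 58185, 62064 and 62988 in WT (gain -0.09 ± 0.20).

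Windows of the promoter alone, from 250 bases before to 50 after the start, were available for 52 members. An interval among the best 100000 overlapped 40 of them in all 6 libraries and 3 of them in none. All 11 H4 promoters were covered in every library, as were 13 of 17 H2A, 11 of 14 H2B and 5 of 10 H3 promoters. Gains in these windows were positive for 9 of 11 H4 genes (median 0.34), 2 of 15 H2A genes (-0.46) and 3 of 13 H2B genes (-0.68), beside 71.5% of all promoters tested (median 0.24). No member was called (limma, lowest adjusted p = 0.159), beside 0.0285% of all promoters called higher and 0.0569% lower. At an unadjusted p below 0.05, 7 members were higher, beside 11.2%, and 4 lower, beside 1.3%.

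The classes also differ in promoter sequence, which the choice of members did not use. CCAAT occurred in 17 of 17 H2A, 14 of 14 H2B and 10 of 10 H3 windows but in 3 of 11 H4 windows, on either strand, and in 39.0% of 17492 promoter windows of the same 300 bases. The octamer ATTTGCAT occurred in 6 H2A and 6 H2B windows, in 0 H3 and 0 H4 windows, and in 1.71% of all. TATAAA occurred in 30 of the 52 windows, beside 13.3% of all. By class it was in 11 of 17 H2A, 7 of 14 H2B, 4 of 10 H3 and 8 of 11 H4 windows. TTTGAA occurred in 11 H2B, 10 H2A, 2 H3 and 1 H4 window, beside 16.5% of all. The E2F-like letters TTTCCCGC, TTTGGCGC or TTTCGCGC occurred in 10 of 52, beside 2.48% of all. A match is a run of letters and not a measured binding site. The median GC content was 45.0% for the members, with 44.0% for H2A, 43.0% for H2B, 41.3% for H3 and 48.3% for H4, beside 56.3% for all promoters. Over 49 members, which partly share windows, GC content and the gain by fold had Spearman's rho = 0.10, and over 13141 genes it was 0.10.

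Linker histone genes of the chromosome 13 cluster encode H1, which binds between nucleosomes. Of the 6, 5 were tested and 0 called, with H1f5 alone at an unadjusted p below 0.05 and a negative gain, beside 3.72% of all genes. H1f5 held rank 44237, 44273 and 30161 in KO, against 17458, 26829 and 26033 in WT, without overlap (gain -0.76 ± 0.30, limma adjusted p = 0.433). The WT libraries all ranked better at 4.13% of all genes. The summit of the H1f5 interval lay at a median of 1115 bp past the start, beyond the gene's span. H1f4 held 15081, 15962 and 34257 in KO and 29624, 34959 and 32260 in WT (gain 0.67 ± 0.35, limma adjusted p = 0.516).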

How the data were processed

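ATAC-seq peak lists of 3 KO and 3 WT libraries were used, 1 narrowPeak list per library, each called separately. The submitters' processing notes name mm10 and DiffBind, and the sources used here name neither aligner nor peak caller. The authors deposited for each peak its fold (a ratio to the local background), −log10 p, −log10 q, summit position and a display score, the last not used here. The list of KO replicate 1 started at a −log10 p of 3.00 and the others at 2.00.

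Peaks were reduced to distinct intervals and ranked by fold. Each gene took its best rank within 1 kb, or the next rank after the list where none lay among the best 100000. Genes with an interval in at least 3 libraries were tested on −log2 rank by limma 3.58.1 (R 4.3.3, trended, moderated variances), adjusting by Benjamini-Hochberg over all of them at 0.05. The scoring and fit were also run on simulated lists with known changes. Those lists were all made from a single library with independent noise, so they do not show how the fit behaves with the differences between these libraries. Python 3.11.15, NumPy 2.4.6, pandas 2.3.3 and matplotlib 3.10.9 did the rest. The labels do not say whether libraries of the same number are paired. The deviations of same-numbered libraries from their genotype means correlated at 0.208, 0.637 and 0.413. Those of KO replicate 3 and WT replicate 1 correlated at 0.383, and the other unlike-numbered libraries at -0.547 to -0.112. Deviations cancel out within each genotype by construction, so these correlations are not independent of each other. A pairing was thus not settled, and the p-values come from the fit without a block unless a block is named. A filled-in rank adds no spread, and read depth limits which weak peaks are listed.

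The members and lists were chosen with earlier results of these data known. Named were, in each direction, the 5 members of smallest p on chromosome 13 and the 2 on chromosome 3, the best and worst ranked, the testis genes, and of each other gene list the gene of smallest p per direction. Promoter sequences and the names of 52 members came from the RefSeq table of GRCm38.p6; H2bc21, H4c14, H3c7, H2bc4 and H3c1 have no entry there. Alternatives were other list lengths, windows, thresholds, filters, centring, a covariate, a replicate block and leaving out each library; promoter windows, shared intervals counted once, and the ranking by p combined with other settings were added after seeing the data.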

Additional observations from a re-analysis of the deposited data

How the results depend on the processing

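Of all protein-coding genes, 4 were called higher and 2 lower in KO. By −log10 p the counts were 6 and 4, with promoter windows 3 and 6, with a rank list of 140000 intervals 5 and 1, and with a window of 500 bp, or the summit inside the window, 4 and 1. They were 4 and 0 with a window of 0 bp, 1 and 0 with spans up to 3 kb or after adjustment for the gene-end share, and 0 and 0 with a rank list of 50000, an interval in all 6 libraries or in at least 1, or the library median subtracted. With the replicate block they were 0 and 0, with 3424 genes at an unadjusted p below 0.05 against 1668 without the block. The block changed no call of a member ranked by fold. Leaving out each library gave 0 to 94 genes higher and 0 to 85 lower, and 0 to 1 member higher and 0 to 2 lower: 94 and 85 genes without KO replicate 3, 29 and 73 without WT replicate 2. The causes were not tested. In the other settings with ranking by fold, 0 members were called.

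The median gain of the members by −log10 p was -0.80, with -0.74 on chromosome 13, -0.80 on chromosome 3, -1.09 for H2A, -1.37 for H2B and -0.19 for H4. The H4 median was 0.68 with a rank list of 50000. Leaving out each library gave medians by fold of -0.46 to -0.0095 for all members, -0.40 to 0.042 on chromosome 13, -0.58 to -0.029 on chromosome 3 and -0.27 to 0.10 for H3. By −log10 p they were -0.96 to -0.60 for all members, -1.51 to -0.62 for H2A, -1.97 to -0.66 for H2B, -0.77 to -0.32 for H3 and -0.24 to -0.064 for H4. The medians closest to 0 came without WT replicate 1 for H2A and H2B by both columns. The mean number of members with an interval was 52.3 in KO and 53.7 in WT. It was 44.7 and 43.0 among the best 50000, 23.3 and 25.3 among the best 25000, and 48.3 and 49.0 with a window of 0 bp. In WT it was 51.0 with a window of 500 bp and 49.7 with the summit inside the window.

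After adjustment for the gene-end share, gains turned to 0.067 for H2ac15 and H2bc15, 0.28 for H2ac8, 1.32 for H2ac12, 0.26 for H3c13 and H2bc18, -0.34 for H1f4, -0.61 for Coil, 0.37 for Pou2f1 and 0.062 for Asf1b. That share was highest in KO replicates 1 and 2, so these adjusted gains cannot tell share and genotype apart. By −log10 p, they turned to -0.51 for H2bc7, H2ac7 and H2bc9. With narrower windows (500 bp, 0 bp or the summit inside), H4c17 turned to 0.43 and, at 0 bp, H2bc21 to 0.52, H4c14 to -0.44 and H4c8 to -0.12. With promoter windows, H4c17 turned to 0.40, H4c8 to -0.12, Pou2f1 to 0.27 and Chaf1a to -0.017. Leaving out each library, H2bc21 ranged from -0.39 to 0.072 and Asf1b from -0.997 to 0.15.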

Other observations

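The genes that act on histone genes and histones were open in every library. None of them was called in KO against WT by fold (limma, lowest adjusted p 0.459). Chaf1a alone had an unadjusted p below 0.05 by fold, with a positive gain, beside 6.36% of all genes. By −log10 p Hat1 alone of the processing and chaperone genes had one, with a gain of 1.27, beside 11.6% of all genes. The 13 genes of histone gene transcription and 3′ end processing all had an interval among the best 50000 of every library, with 6 positive and 7 negative gains and a median of -0.04. Npat, the S phase coactivator of the clusters, held rank 4193, 12449 and 4833 in KO and 2993, 12297 and 4520 in WT. Coil, which encodes the Cajal body protein coilin, had the smallest p of those with a positive gain (0.78 ± 0.46), and Pou2f1, which encodes the octamer-binding factor, of those with a negative one (-1.25 ± 0.72). The libraries of both genotypes overlapped at Npat and Pou2f1.

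The 6 histone chaperone genes, whose proteins escort newly made histones, ranked well, with a median over genes of 5085, 8253 and 3400 in KO and 3561, 7647 and 7403 in WT. Chaf1a, a subunit of the chromatin assembly factor that works behind the replication fork, held rank 7413, 1592 and 4112 in KO and 12255, 8106 and 9949 in WT, without overlap (gain 1.45 ± 0.62, limma adjusted p = 0.459). The summit of that interval lay inside the gene, at a median of 11161.5 bp past the start, and the gain was 0.10 by −log10 p and -0.017 in the promoter window. Asf1b had the only negative gain of the list, -0.41 ± 0.59. The 10 genes of variants not confined to S phase had a median gain of -0.03, from H2az2 at -1.12 to Macroh2a1 at 0.44 ± 0.24, and Macroh2a1 had the smallest p among the positive gains. H2ax, the variant phosphorylated at DNA breaks, had the smallest p among negative gains (-0.97 ± 0.52) and held rank 30647, 39858 and 14188 in KO and 6929, 28352 and 11816 in WT. By −log10 p, 3 of the 10 variant genes were lower in KO at an unadjusted p below 0.05, beside 6.35% of all genes. They were H2ax, H3f3b and H2az2, with gains of -1.61, -1.17 and -1.69 (lowest limma adjusted p = 0.258).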
